A study of Rattus norvegicus with 6 samples.

Results

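The enzymes that hold reactive oxygen species in check and that make and use glutathione were examined in rat testis by RNA-Seq. A list of 45 gene symbols was chosen with earlier results of these data known, and was grouped by the role of the protein. A symbol was matched to a row of the gene table when it was spelled the same, and 43 of the 45 had 1 row each among the 35291 rows. Gstm2 and Gstm5 had none. Of the 43, 37 averaged 0.5 FPKM or more over all 6 libraries and entered the test, which covered 20338 genes. FPKM is the number of fragments scaled to transcript length and to the mapped fragments of the library, so levels of different genes can be compared per length.

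Outbred Sprague-Dawley rats gave the testes for 6 libraries. For 3 of the libraries (DM) the rats had been made diabetic. They were given a high-fat diet and then a single injection of streptozotocin, which kills beta cells of the pancreas, at 35 mg/kg. Their tissue was collected 8 weeks after the injection. The non-diabetic rats of the other 3 (Nor) had been injected with the citrate buffer alone. Whether they too were fed the high-fat diet is not given in the sources used here. If they were not, diet and streptozotocin cannot be told apart in this comparison. Each library was made from whole testis, in which germ cells, Sertoli cells, Leydig cells, macrophages, vessels and peritubular cells are mixed. The libraries are called DM1 to DM3 and Nor1 to Nor3 after their labels, and the labels call them replicates, so the p-values measure the spread between these 6 libraries.

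The summed FPKM of a library ran from 453304 to 478211. The most frequent ratios between libraries among low values put the relative depth between 0.893 and 1.09, with Nor3 the shallowest and DM3 the deepest. Correlations of log2 values between libraries of 1 group ranged from 0.958 to 0.965 and those between the groups from 0.957 to 0.966, so no library stood apart. Markers of elongating spermatids, which only testis holds in number, summed to between 15850 and 18310 FPKM, and the epididymis marker rows summed to between 0.898 and 1.5 FPKM.

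Superoxide, the first product when oxygen takes up a stray electron, is turned into hydrogen peroxide by superoxide dismutases. The peroxide is then removed by catalase, by glutathione peroxidases and by peroxiredoxins, the latter re-reduced by thioredoxin and its reductase. Glutathione, a tripeptide made by glutamate-cysteine ligase and glutathione synthetase, feeds the peroxidases and the glutathione transferases, which couple it to reactive lipids and foreign compounds. Many of these genes are targets of the transcription factor NRF2 (Nfe2l2), which KEAP1 holds back in unstressed cells. Testis is unusual in this system, since spermatids use their own thioredoxins and their own thioredoxin-glutathione reductase, and GPX4 serves as a structural protein of the sperm midpiece. Leydig cells, the source of testosterone, are known for high levels of alpha-class glutathione transferases.

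NRF2 is known to act through the antioxidant response element, whose core is written TGACNNNGC. RefSeq promoters of assembly GRCr8, from 250 bases before to 50 bases after each gene start, were available for 40 of the 45 members, and not for Sod3, Gpx8, Prdx6, Gsr and Gstt1. The core was found on either strand in 12 of the 40, or 30%, counting a gene when any of its promoters held it. Counted by promoter, the share was 12.1% of all 33469 promoters of the same length. It was 12.5% of the 21842 promoters of protein-coding genes. Shares by gene and by promoter are unlike units. The sequences of 7 are shown because they set members with an unadjusted p below 0.05 beside members without one, each as 29 bases read on the strand that carries the core, with the core in capitals. Gclm, Txnrd1 and Gstp1 come first, then Prdx1, Sod2 and Gsta1, which were lower in the diabetic rats, and last Gsta3 for its likeness to Gsta1.
Gclm, chr2:213031953-213031981, minus strand: tggaagacaaTGACTAAGCagaaaccgca
Txnrd1, chr7:22755964-22755992, plus strand: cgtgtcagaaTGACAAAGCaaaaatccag
Gstp1, chr1:210769748-210769776, minus strand: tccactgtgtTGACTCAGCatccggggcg
Prdx1, chr5:135383761-135383789, minus strand: cggcggggtaTGACTCAGCgctttccctg
Sod2, chr1:50050185-50050213, plus strand: agctaggcgcTGACCCTGCcggcagcgcc
Gsta1, chr9:31216484-31216512, minus strand: aactcaggcaTGACTTTGCatttttcttc
Gsta3, chr9:31154962-31154990, plus strand: aactcaggcaTGACTTCGCattttttcct
The alpha-class names Gsta1 and Gsta3 were matched by symbol alone, and symbols of this class have been reassigned between annotations, so these promoters may belong to neighbouring copies. A match describes letters in this window and does not show that NRF2 binds there. Of the 10 tested members with the core, 3 had an unadjusted p below 0.05, and the median log2 fold change of the 10 was -0.09. Of the 22 tested members with a promoter and no core, 4 did, and their median was -0.12. Over all genes tested, 4.99% were lower and 2.47% higher at that threshold. Nqo1, a known NRF2 target, was among the 22 without the core in this window. The sets thus do not sort NRF2 targets from other genes.

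Catalase, the mitochondrial peroxiredoxin Prdx3, thioredoxin Txn1 and the transferases Gsta1 and Gstm1 were 40.0% to 49.7% lower in the diabetic rats, with groups that did not overlap. Sod2 and Sod3 were lower by 16.9% and 30.2%, also without overlap, and Prdx1 by 14.9% with overlapping groups. These 8 were the members with an unadjusted p below 0.05 in limma, and all 8 were lower in the diabetic rats. They make up 21.6% of the 37 tested members, against 4.99% of all genes tested that were lower at the same threshold. In the other direction the count was 0 members, against 2.47% of all genes. The members were chosen with earlier results of these data known, so these shares describe the list and do not test it. No member had an adjusted p below 0.05 (limma, Benjamini-Hochberg), the smallest being 0.146 for Gsta1, and 7 genes of the whole table, or 0.0344%, had one. None reached an absolute log2 fold change of 1 with an unadjusted p below 0.05, a size that 1.24% of all genes passed. Gsta1 stood just short of it, at -0.998. In whole testis, fewer cells of a type and less RNA per cell cannot be told apart.

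The median log2 fold change of the 37 tested members was -0.12, with a range from -0.998 to 0.34, and that of all genes tested was -0.02. The median of the members was -0.05 without Nor2 and -0.17 without DM3. In 23 of the 37 the value was below 0, a share of 62.2% beside 55.6% of all genes. Groups did not overlap in 9 members, or 24.3%, where 13.0% of all genes did not. The diabetic rats lay below in 7 and above in 2, Txndc2 and Txnrd2, against 8.42% and 4.56% of all genes. The other 28 members overlapped.

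**Figure D1:**
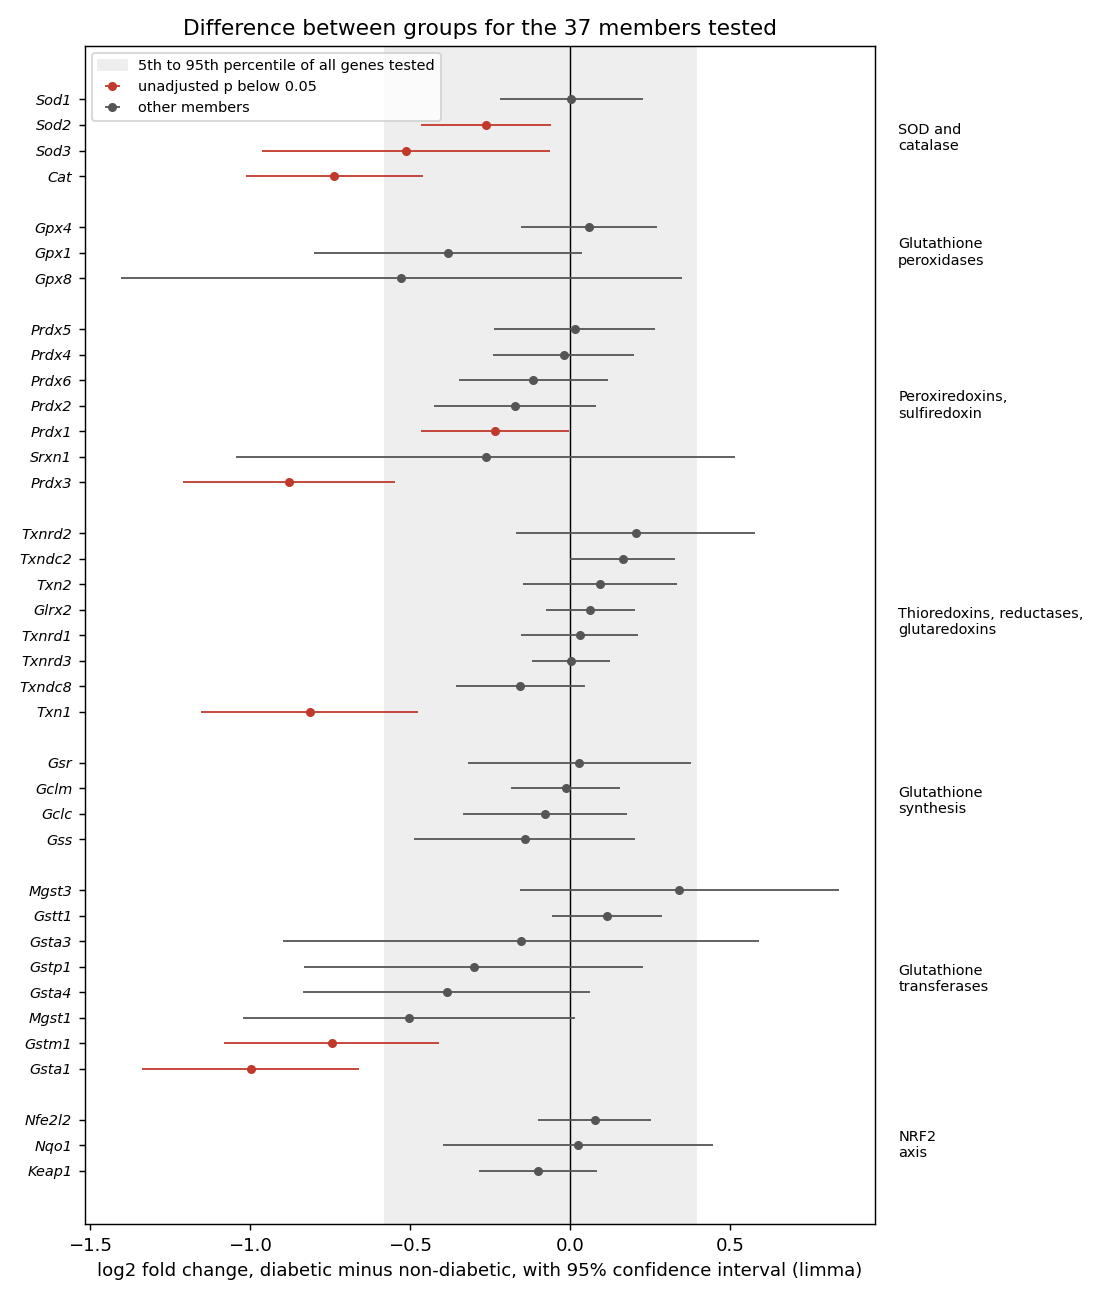
The log2 fold change of each tested member, diabetic minus non-diabetic on the log2(FPKM + 0.1) scale, with its 95% interval from limma, grouped by role. Red marks an unadjusted p below 0.05, and the grey band runs from -0.58 to 0.39, the 5th to 95th percentile of all genes tested. Gsta1, Prdx3, Txn1, Gstm1 and Cat lie between -0.998 and -0.736 with intervals below 0, while Txnrd3, Sod1 and Gclm lie between -0.01 and 0.00.

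The members covered a wide range of levels. Gpx4 at a mean of 481 FPKM over the 6 rats, Glrx2 at 233 and Txnrd3 at 211 together held 52.6% of the summed FPKM of all members. Between 10 and 200 FPKM lay 20 members, led by Sod1 at 93.1, Txndc8 at 83.15 and Gsta1 at 80.25. Another 13 lay between 1 and 10 FPKM, and 7 lay below 1 FPKM. Log2 fold changes of the top 3 ran from 0.00 to 0.06, and the 8 lower members came from the middle bands, 5 from 10 to 200 FPKM and 3 from 1 to 10 FPKM. The summed FPKM of all members came to 93.0% to 94.9% of the non-diabetic mean in the DM rats and to 94.99% to 107.6% in the Nor rats.

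**Figure D2:**
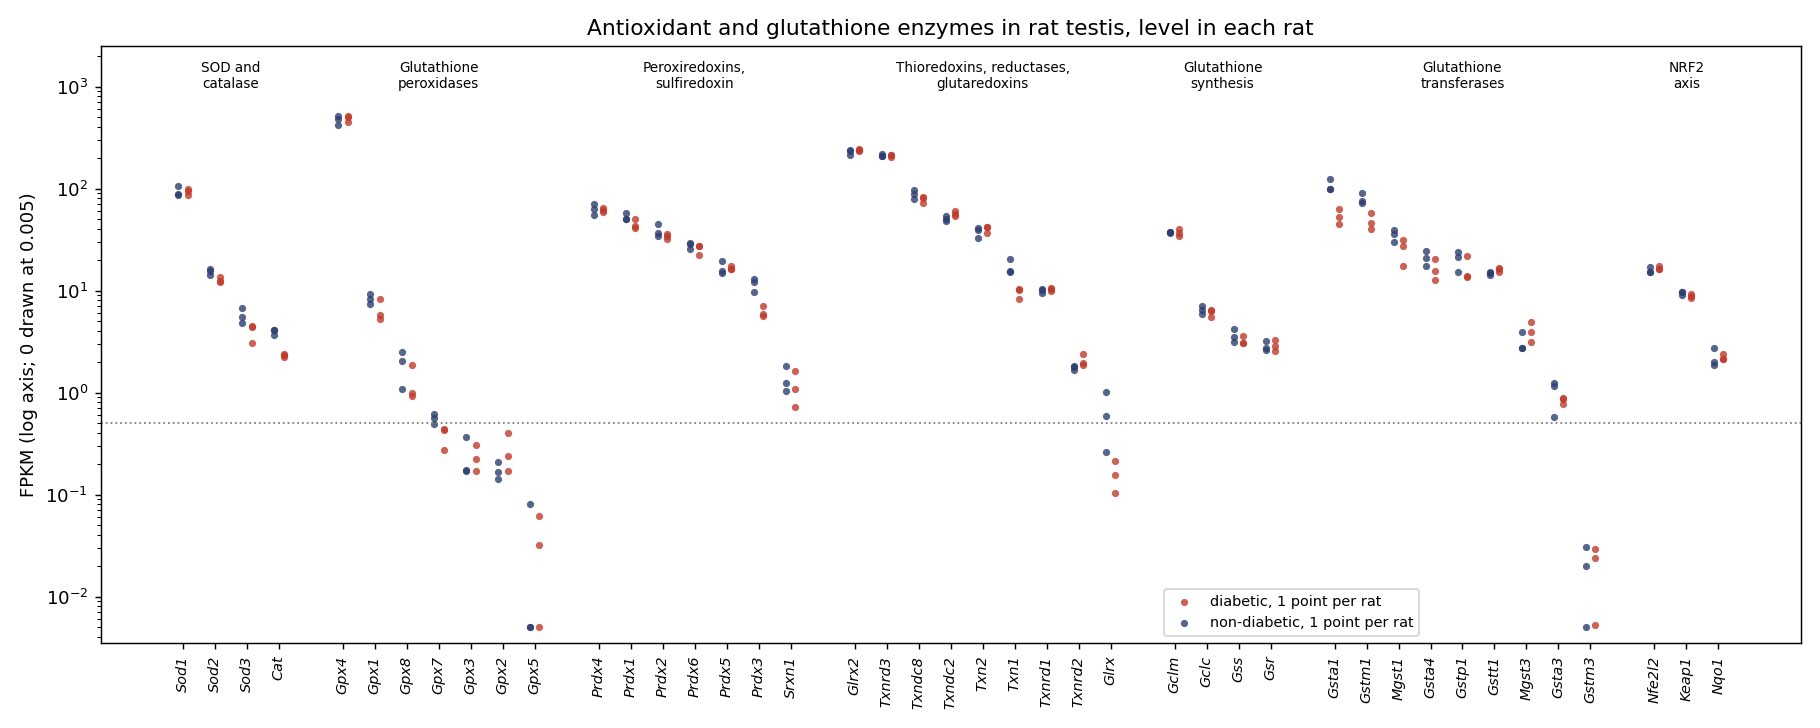
FPKM of each member in each of the 6 rats on a log axis, ordered by role, with 1 point for each rat, the diabetic rats in red. Values of 0 are drawn at the foot of the axis, and the dotted line marks 0.5 FPKM. Gpx4, Glrx2 and Txnrd3 stand at the top with overlapping groups, while the diabetic points lie below all non-diabetic points for Cat, Prdx3, Txn1, Gsta1 and Gstm1.

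Of the enzymes that remove superoxide and bulk peroxide, the cytosolic dismutase Sod1 did not separate the groups and the other members did. Sod1 was at 98.9, 85.7 and 94.8 FPKM in DM1 to DM3 and at 87.4, 105.3 and 86.65 in Nor1 to Nor3. The difference on the log2 scale was 0.00, SE 0.09, with a 95% interval from -0.22 to 0.23 and an adjusted p of 0.997. The groups overlapped fully. Sod2 (ENSRNOG00000019048), the manganese enzyme of mitochondria, was at 12.5, 12.2 and 13.6 FPKM in the DM rats against 14.1, 15.5 and 16.4 in the Nor rats. The highest diabetic rat was just below the lowest non-diabetic rat. On the log2 scale it differed by -0.26, SE 0.09, with an unadjusted p of 0.018 and an adjusted p of 0.566.

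Sod3 (ENSRNOG00000003869), the secreted dismutase, was at 4.39, 3.04 and 4.47 FPKM in the DM rats against 5.50, 6.76 and 4.785 in the Nor rats. Here too the groups were separate, by a small gap. Its log2 fold change was -0.51, SE 0.19, with an unadjusted p of 0.0304 and an adjusted p of 0.63. Catalase, Cat (ENSRNOG00000008364), breaks down hydrogen peroxide in peroxisomes. Its values were 2.41, 2.24 and 2.34 FPKM in the DM rats and 4.07, 4.14 and 3.645 in the Nor rats, or 2.33 ± 0.0823 against 3.95 ± 0.267 (SD, n = 3 and 3). The gap between the groups was wider than the spread within either. The difference on the log2 scale was -0.74, SE 0.12, with a 95% interval from -1.01 to -0.46 and an unadjusted p of 0.000376. The adjusted p was 0.19.

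Among the 7 glutathione peroxidases only 3 were above 0.5 FPKM, and none of the 3 had an unadjusted p below 0.05. Gpx4, which reduces lipid peroxides and forms part of the sperm midpiece, was at 504, 518 and 449.5 FPKM in the DM rats against 476.5, 516 and 422 in the Nor rats. Both groups covered nearly the same range. In limma Gpx4 had a log2 fold change of 0.06, SE 0.09, with a 95% interval from -0.15 to 0.27 and an adjusted p of 0.934. Gpx1, the widespread cytosolic enzyme, was at 8.33, 5.31 and 5.79 FPKM in the DM rats against 8.32, 9.24 and 7.44 in the Nor rats. DM1 lay inside the non-diabetic range and the other two diabetic rats below it. For Gpx1 the log2 fold change was -0.38 with an unadjusted p of 0.0688, and without DM1 it was -0.57 with a p of 0.00378. With any 1 library left out the value ran from -0.57 to -0.25, with p up to 0.211. Gpx8, of the endoplasmic reticulum, had means of 1.26 and 1.87 FPKM with overlapping groups.

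The other 4 peroxidases lay below 0.5 FPKM and were not tested. Gpx7, another peroxidase of the endoplasmic reticulum, was at 0.273, 0.429 and 0.439 FPKM in the DM rats against 0.61, 0.566 and 0.487 in the Nor rats. Its groups were separate, at a level close to the limit for testing. Gpx2, the intestinal form, and Gpx3, the plasma form, lay between 0.143 and 0.403 FPKM. Gpx5, an androgen-dependent protein of the epididymis, was at or below 0.0814 FPKM in all 6 rats.

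The peroxiredoxins, thiol enzymes that reduce peroxides, differed among themselves. Prdx3 (ENSRNOG00000010958), the peroxiredoxin of mitochondria, was at 5.66, 5.91 and 7.07 FPKM in the DM rats against 12.1, 12.95 and 9.61 in the Nor rats, or 6.21 ± 0.753 against 11.5 ± 1.73 (SD, n = 3 and 3). All 3 diabetic rats lay below all 3 non-diabetic rats. In limma Prdx3 had a log2 fold change of -0.88, SE 0.14, with a 95% interval from -1.21 to -0.55, an unadjusted p of 0.000378 and an adjusted p of 0.19. Prdx5, which also reaches mitochondria, had means of 16.7 and 16.65 FPKM, with overlapping groups.

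Prdx1 (ENSRNOG00000017194), a cytosolic peroxiredoxin, was at 43.3, 40.6 and 50.4 FPKM in the DM rats against 50.3, 57.7 and 49.9 in the Nor rats. DM3 reached into the non-diabetic range. For Prdx1 the log2 fold change was -0.24, SE 0.10, with an unadjusted p of 0.0478 and an adjusted p of 0.666. Prdx4, the peroxiredoxin of the secretory pathway and the most abundant of the family here, was at 59.3, 63.8 and 61.8 FPKM in the DM rats against 54.8, 70.0 and 63.7 in the Nor rats. The diabetic values lay within the non-diabetic ones. On the log2 scale it differed by -0.02, SE 0.09, with a 95% interval from -0.24 to 0.20 and an adjusted p of 0.98. Means were 34.1 and 38.65 FPKM for Prdx2, the other main cytosolic form, and 25.7 and 27.75 for Prdx6, which also acts on phospholipids. Srxn1, sulfiredoxin, which repairs over-oxidised peroxiredoxins, had means of 1.15 and 1.37 FPKM. These 3 overlapped between the groups.

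Thioredoxin Txn1 (ENSRNOG00000012081), the general cytosolic donor of electrons to peroxiredoxins, was at 10.45, 8.24 and 10.0 FPKM in the DM rats against 15.4, 20.4 and 15.2 in the Nor rats, or 9.57 ± 1.18 against 17.0 ± 2.93 (SD, n = 3 and 3). The groups were well apart. Its log2 fold change was -0.81, SE 0.14, with a 95% interval from -1.15 to -0.48, an unadjusted p of 0.000705 and an adjusted p of 0.261. Txn2, the mitochondrial thioredoxin, had means of 40.0 and 37.6 FPKM with overlapping groups. Processed copies of genes such as Txn1, Prdx1 and Gpx4 are known in mammalian genomes, and how the assembly shared reads with them is not known.

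The sperm thioredoxins were higher than Txn1 in FPKM, and neither had an unadjusted p below 0.05. Txndc2, the thioredoxin of the sperm fibrous sheath, was at 53.8, 60.6 and 56.1 FPKM in the DM rats against 50.4, 48.2 and 53.6 in the Nor rats. The diabetic rats lay above, by a gap between DM1 and Nor3 that is small beside the spread. In limma Txndc2 had a log2 fold change of 0.16, SE 0.07, with an unadjusted p of 0.0512 and an adjusted p of 0.67. Txndc8, a thioredoxin of the spermatid Golgi and acrosome, was at 82.6, 72.9 and 80.3 FPKM in the DM rats against 88.1, 95.8 and 79.25 in the Nor rats. Its groups overlapped, and its log2 fold change was -0.16, SE 0.09, with an adjusted p of 0.768.

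Txnrd3, the thioredoxin-glutathione reductase of spermatids, was at 214, 215 and 205.5 FPKM in the DM rats against 219, 208 and 207 in the Nor rats. The difference on the log2 scale was 0.00, SE 0.05, with a 95% interval from -0.12 to 0.12 and an adjusted p of 0.997. Txnrd1, the cytosolic reductase, had means of 10.3 and 10.1 FPKM. Txnrd2, the mitochondrial reductase, was at 2.37, 1.935 and 1.86 FPKM in the DM rats against 1.67, 1.83 and 1.79 in the Nor rats, separate by a narrow gap and with an unadjusted p of 0.239.

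Glrx2, a glutaredoxin with mitochondrial and testis forms, was at 231, 243 and 241 FPKM in the DM rats against 214, 233 and 237 in the Nor rats. The groups overlapped, with a log2 fold change of 0.06, SE 0.06, and an adjusted p of 0.887. Glrx, the cytosolic glutaredoxin, was at 0.104, 0.215 and 0.154 FPKM in the DM rats against 0.584, 0.262 and 1.02 in the Nor rats. These groups were separate, but the mean of Glrx over all rats was below the limit for testing. With no such limit its log2 fold change was -1.36, with an unadjusted p of 0.0212 and an adjusted p of 0.649.

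None of the 4 genes that make or re-reduce glutathione had an unadjusted p below 0.05. Gclm, the modifier subunit of glutamate-cysteine ligase and a widely used readout of NRF2, was at 34.0, 36.6 and 39.8 FPKM in the DM rats against 36.2, 37.7 and 37.3 in the Nor rats. For Gclm the log2 fold change was -0.01, SE 0.07, with a 95% interval from -0.18 to 0.15 and an adjusted p of 0.983. For whole testis the interval leaves out a change of the size seen for Gsta1 or Cat, and changes within 1 cell type were not tested. Gclc, the catalytic subunit, had means of 6.07 and 6.42 FPKM, Gss, glutathione synthetase, 3.22 and 3.59, and Gsr, glutathione reductase, 2.91 and 2.85. All 3 overlapped between the groups.

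Glutathione transferases held the largest difference among the tested members. Gsta1 (ENSRNOG00000013484), an alpha-class enzyme, was at 53.2, 44.4 and 63.5 FPKM in the DM rats against 97.9, 123 and 99.4 in the Nor rats, or 53.7 ± 9.58 against 106.8 ± 14.1 (SD, n = 3 and 3). The highest diabetic rat was well below the lowest non-diabetic rat. In limma Gsta1 had a log2 fold change of -0.998, SE 0.14, with a 95% interval from -1.34 to -0.66, an unadjusted p of 0.000203 and an adjusted p of 0.146. Of the 1818 genes that averaged 50 FPKM or more, 6, Gsta1 among them, had a log2 fold change as low or lower.

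Gstm1 (ENSRNOG00000029726), a mu-class enzyme, was at 45.9, 40.1 and 57.6 FPKM in the DM rats against 72.7, 90.6 and 76.0 in the Nor rats. Again the groups were apart, and in both transferases DM2 was the lowest rat and Nor2 the highest. For Gstm1 the log2 fold change was -0.745, SE 0.14, with an unadjusted p of 0.00113 and an adjusted p of 0.279. Mgst1, a membrane-bound transferase, was at 27.3, 17.2 and 31.5 FPKM in the DM rats against 29.9, 39.4 and 35.95 in the Nor rats. DM3 lay inside the non-diabetic range. The log2 fold change of Mgst1 was -0.50 with an unadjusted p of 0.0558, which became 0.0189 without DM3 and 0.0457 without Nor1. With any 1 library left out the fold change ran from -0.68 to -0.25, with p up to 0.155.

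The remaining transferases overlapped between the groups. Mean FPKM in the diabetic and non-diabetic rats were 16.2 and 21.0 for Gsta4, which acts on lipid aldehydes, 16.4 and 20.1 for Gstp1 of the pi class, and 15.96 and 14.7 for Gstt1 of the theta class. Mgst3, another membrane form, was at 4.0 and 3.13, and Gsta3, known for a role in steroid isomerisation, at 0.838 and 0.989. Gstm3 was at or below 0.0304 FPKM in every rat and was not tested.

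Alpha- and mu-class genes have near-identical copies, and how the assembly shared reads among them is not known, so rows of near relatives were also summed. The rows Gsta1, Gsta2, Gsta3 and Gsta5 together came to 71.5, 55.0 and 85.0 FPKM in the DM rats and to 123, 163 and 131 in the Nor rats. The mu-class rows Gstm1, Gstm4, Gstm6 and Gstm7 came to 194, 166 and 204 against 234, 276 and 222. Both sums separated the groups. Their log2 fold changes were -0.99 and -0.38, each with a two-sided exact permutation p of 0.1, the smallest that 3 against 3 rats can give. All 6 rows described as alpha class, Gsta4 included, came to 86.9, 67.8 and 105.4 FPKM in the DM rats and to 141, 187.5 and 152 in the Nor rats, again apart, with a log2 fold change of -0.90. All 8 rows described as mu class came to 1524, 1420 and 1324 FPKM against 1412, 1646 and 1261. Most of that sum is the row NEWGENE_620381, described as mu class 3, which averaged 1234 FPKM in the DM rats and 1195 in the Nor rats. With it the groups overlapped, and the log2 fold change of the mu-class sum was -0.01 (exact permutation p of 1.0).

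**Figure D3:**
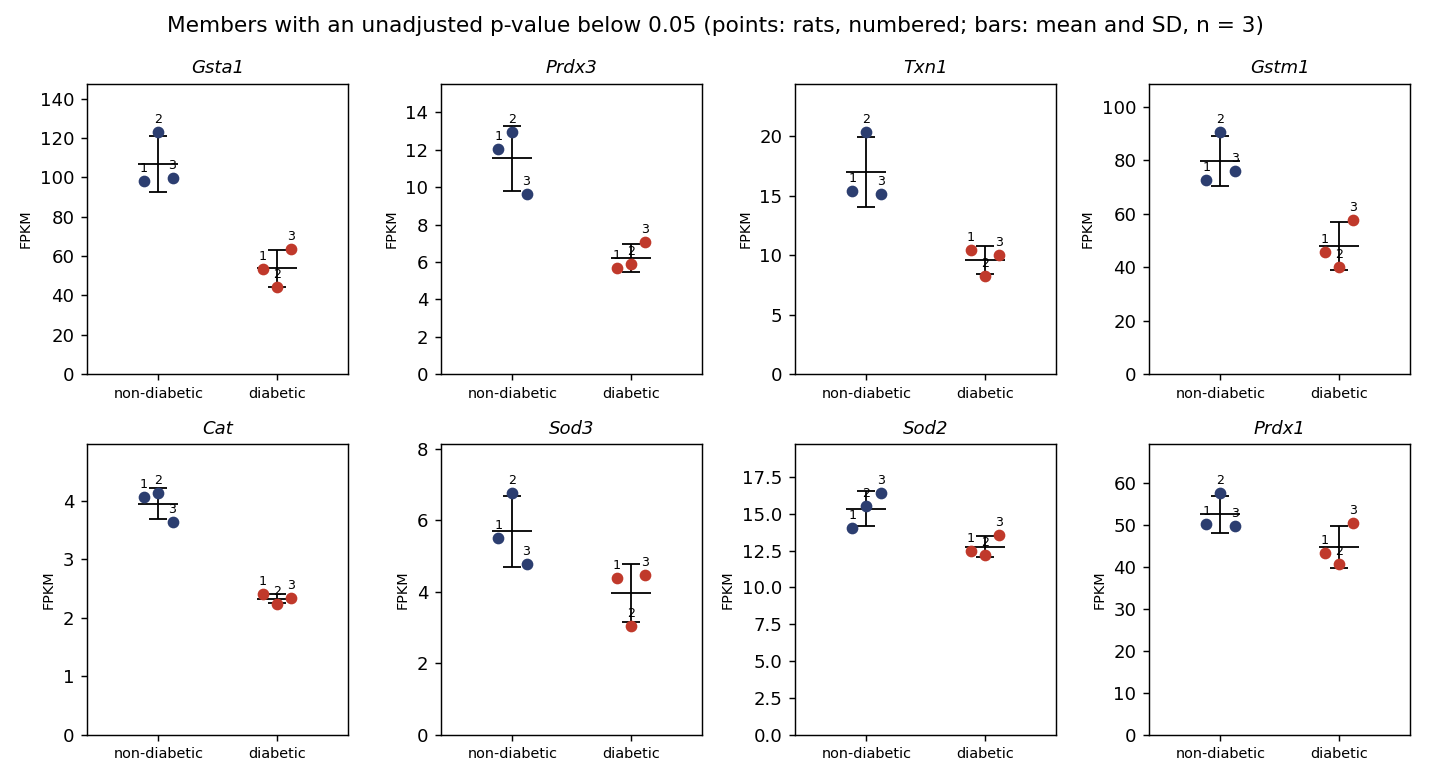
FPKM of the 8 members with an unadjusted p below 0.05, 1 panel for each gene with its own axis from 0, 1 numbered point for each rat, and bars for the mean and SD of each group (n = 3). The groups are apart in 7 panels, and in Prdx1 DM3 at 50.4 lies above Nor1 and Nor3.

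In the NRF2 axis itself, 0 of 3 members had an unadjusted p below 0.05. Nfe2l2 was at 16.4, 16.2 and 17.2 FPKM in the DM rats against 15.2, 16.9 and 15.2 in the Nor rats, with a log2 fold change of 0.08, SE 0.07, a 95% interval from -0.10 to 0.25 and an adjusted p of 0.895. Keap1 was at 8.82, 9.20 and 8.46 FPKM in the DM rats against 9.63, 9.67 and 9.11 in the Nor rats. DM2 lay above Nor3, and the log2 fold change of Keap1 was -0.10, SE 0.08, with an adjusted p of 0.852. Nqo1, a quinone reductase and the best known NRF2 target, had means of 2.21 and 2.19 FPKM.

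Other genes of the NRF2 system were read from a further list of 29 partners and targets, of which 25 were tested. At an unadjusted p below 0.05, 5 were lower in the DM rats (4.99% over all genes) and 0 were higher (2.47%), and the list's median log2 fold change was -0.07. Slc7a11, which imports cystine for glutathione synthesis, was at 1.185, 0.994 and 2.49 FPKM in the DM rats against 3.92, 3.73 and 4.43 in the Nor rats. The groups were apart, with a log2 fold change of -1.42, SE 0.31, and an adjusted p of 0.353. Tkt, a transketolase of sugar phosphate metabolism, had a log2 fold change of -0.37. The value was -0.29 for Ephx1, an epoxide hydrolase, and -0.19 for Nfe2l1, a factor related to NRF2. The call for Nfe2l1 was lost when any library but Nor3 was left out, with p up to 0.0893. Hmox1, heme oxygenase, had means of 13.7 and 13.25 FPKM in the DM and Nor rats and a log2 fold change of 0.05.

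A list of 29 further transferases and enzymes of glutathione turnover had 25 tested genes, of which 3 were lower at an unadjusted p below 0.05 and 1 was higher, where 4.99% and 2.47% of all genes were. The lower ones were Gsta2, Gsta5 and Gstm7, close relatives of Gsta1 and Gstm1, with log2 fold changes of -1.04, -0.98 and -0.48. Gpx6, a peroxidase known from the olfactory epithelium, was at 2.04, 1.90 and 1.77 FPKM in the DM rats against 1.41, 1.36 and 1.435 in the Nor rats. Its groups were apart, and its log2 fold change was 0.42 with an adjusted p of 0.627. Its unadjusted p was above 0.05 without DM1, DM2, Nor1 or Nor2, with values up to 0.0942.

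Among 30 tested genes of a list of other thiol repair proteins and selenoproteins, 3 were lower and 2 higher at an unadjusted p below 0.05, against 4.99% and 2.47% of all genes. Selenop, the secreted carrier of selenium, was at 181, 157.5 and 206 FPKM in the DM rats against 328, 406 and 333.5 in the Nor rats. The groups were far apart. On the log2 scale it differed by -0.97, SE 0.12, with an adjusted p of 0.0782, and DM2 and Nor2 were again the extremes. Txndc5, of the endoplasmic reticulum, and Park7, a redox-sensing protein, had log2 fold changes of -0.33 and -0.17. Txnip, which binds and restrains thioredoxin and is known to respond to glucose, was at 36.45, 38.6 and 34.5 FPKM in the DM rats against 29.55, 31.3 and 32.0 in the Nor rats. Every diabetic rat lay above every non-diabetic rat, with a log2 fold change of 0.24, SE 0.07, and an adjusted p of 0.492. Ccs, the copper chaperone for Sod1, had a log2 fold change of 0.20. Of these, Selenop and Txnip kept an unadjusted p below 0.05 in all 17 alternatives. Txndc5 lost it without DM2, Nor1 or Nor2, Park7 when any library but Nor3 was left out, and Ccs without DM1, DM2, Nor2 or Nor3.

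**Figure D4:**
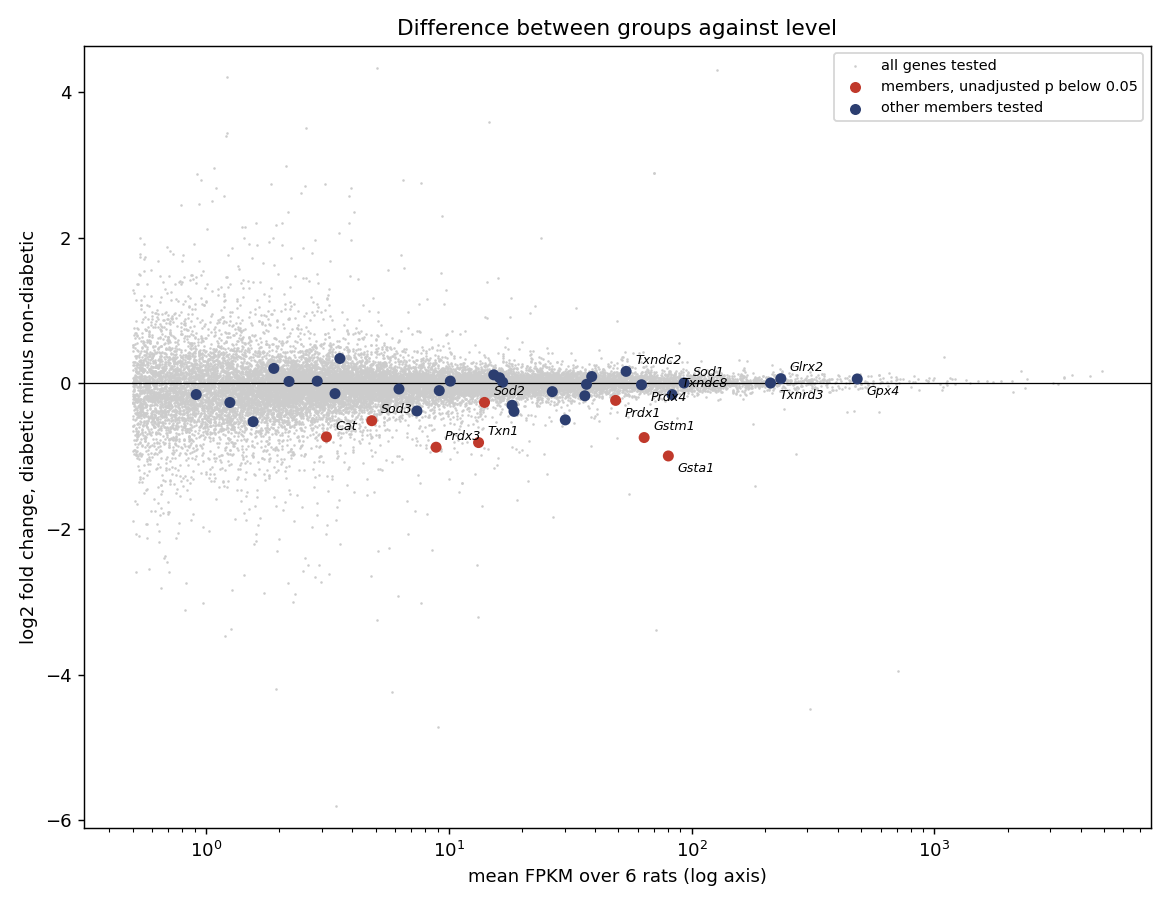
Log2 fold change of every tested gene (grey) and of the 37 tested members (red with an unadjusted p below 0.05, blue without) against the mean FPKM over the 6 rats on a log axis. Gsta1 and Gstm1 lie low among genes of their level, while the 3 members above 200 FPKM lie between 0.00 and 0.06.

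Certain rats stood at the ends in many members. DM2 was the lowest diabetic rat in 7 of the 8 lower members and in 19 of all 37 tested members, and Nor2 was the highest non-diabetic rat in 7 of the 8 and in 28 of the 37. Nor2 also had the largest summed FPKM of any library. Without DM2, or without Nor2, 5 members kept an unadjusted p below 0.05, namely Cat, Prdx3, Txn1, Gsta1 and Gstm1. In those 5 the largest p with any 1 library left out was 0.00509, while for Sod2, Sod3 and Prdx1 it was 0.0592, 0.105 and 0.153. Sod2 lost its call without DM1, DM2, Nor2 or Nor3, Sod3 without DM2, Nor1 or Nor2, and Prdx1 when any library but DM3 was left out.

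Markers of Leydig cells were lower in the same rats. Of 8 listed markers 7 had a row, and 6 of the 7 were lower at an unadjusted p below 0.05, with Nr5a1, at a log2 fold change of -0.02, the exception. Hsd17b3 lost its call without DM1, DM2, Nor1 or Nor3, and Star without Nor2. None of the 7 was at 0 in any rat. Their summed level was 44.5, 31.2 and 60.1 FPKM in the DM rats and 107.8, 121 and 87.3 in the Nor rats. Cyp17a1, an enzyme of androgen synthesis, was the marker with an adjusted p below 0.05, at 0.0415, and a log2 fold change of -1.60. Only the 9 transferase rows of the member list are summed here, without NEWGENE_620381. That row averaged 1234 FPKM in the DM rats and 1195 in the Nor rats. The list of further transferases and glutathione turnover came to 95.8% to 100.4% of the non-diabetic mean in the DM rats. The summed member transferases came to 66.0%, 52.7% and 73.45% of that mean in DM1 to DM3, and the summed Leydig markers to 42.3%, 29.6% and 57.1%. The order of the diabetic rats was the same in both sums, and Nor2 was the highest in both, as in 28 of the 37 tested members. Nor1 and Nor3 swapped places, at 92.4% and 94.3% in the transferases and at 102.4% and 82.9% in the Leydig markers. Gsta1 and Gstm1, both among the 8 lower members, were the largest of the 9 rows, at means of 80.25 and 63.81 FPKM. Among the 8 tested transferases DM2 was the lowest diabetic rat in 6, DM3 the highest in 5 and DM1 in 3. Nor2 was the highest non-diabetic rat in 5, so the order of the sum did not hold in every transferase. The part of Leydig cells in the lower members was not tested.

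Of 7 tested macrophage markers 3 were lower at an unadjusted p below 0.05, namely Cd68, Csf1r and C1qa, and Cd68 lost its call without DM1, DM3, Nor1 or Nor2. The other 4 overlapped between the groups, with log2 fold changes of -0.06 for Mrc1, the most abundant of the list, -0.13 for Adgre1, -0.23 for Cd163 and -0.88 for C1qb. The sum of the list was 77.4% to 93.3% of the non-diabetic mean in the DM rats and 97.1% to 103% in the Nor rats, and their part in the result was not tested. The germ cell lists did not separate the groups. At an unadjusted p below 0.05 the count was 0 of 8 for spermatocytes, 0 of 8 for round spermatids and 0 of 8 for elongating spermatids. It was 1 of 8 for Sertoli cells (Inha, lower), 0 of 6 for peritubular cells, 0 of 4 for endothelium and 0 of 2 for red blood cells. Summed, the endothelial list came to 82.6% to 87.8% of the non-diabetic mean in the DM rats and 87.4% to 112.6% in the Nor rats. The peritubular list came to 86.7% to 95.5% against 87.9% to 110.5%, and the Sertoli list to 101.8% to 107.6% against 87.0% to 109.4%. These sums overlapped between the groups.

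**Figure D5:**
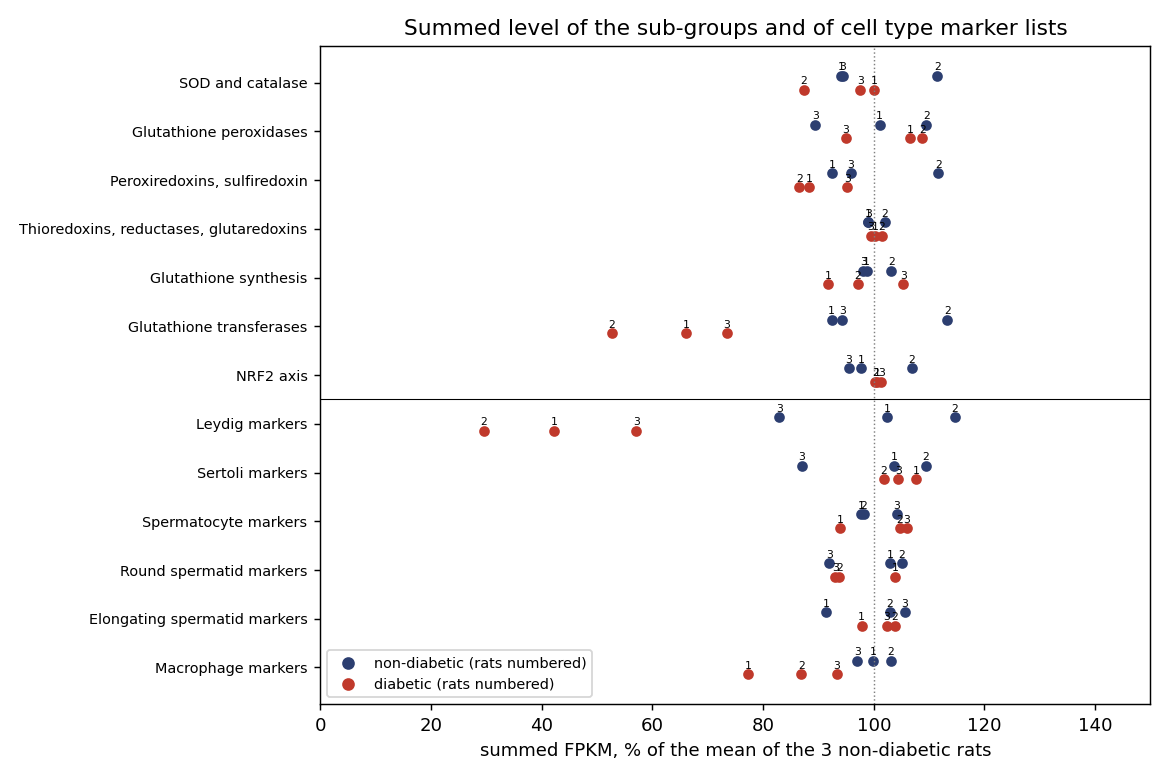
Summed FPKM of each role group and of selected cell-type marker lists in each rat, as a percent of the non-diabetic mean. The member transferases at 52.7% to 73.45% and the Leydig markers at 29.6% to 57.1% are the sums in which the diabetic rats lie farthest below the non-diabetic rats. Transferase rows outside the member list are not in the sum, and Gsta1 and Gstm1 are its largest rows.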

How the data were processed

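Whole-testis RNA-Seq libraries, 3 diabetic and 3 non-diabetic, were used. The authors screened the reads against rRNA with BWA, mapped them with STAR and built transcripts with StringTie, and FPKM were the values they deposited, 1 row for each gene or locus. Genome build and tool versions are not given in the sources used here. The study screened transcripts with a test made for counts, which FPKM are not, so limma was used here instead.

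Values were taken as log2(FPKM + 0.1), which understates the change of low genes. Rows averaging 0.5 FPKM or more across all 6 rats were kept, 20338 of 35291. The groups were set against each other in R 4.3.3 with limma 3.58.1 (a trended eBayes after lmFit). Tests were two-sided, and p-values were adjusted by Benjamini-Hochberg over all rows kept. Summed rows were compared by exact permutation (scipy 1.17.1, Python 3.11.15). Counts of reads were not used here, so depth was read as relative depth only, from the steps between low values.

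Members and gene lists were chosen with earlier results of these data known. Every member is named with its level. Those with an unadjusted p below 0.05, the most abundant of each role, the sperm or epididymis forms, Nfe2l2 and Keap1 are given in every rat, and Gpx1, Gpx7, Mgst1, Txnrd2 and Glrx were added after their values were seen. Of other lists, genes with an unadjusted p below 0.05 are named, except 1 that is counted but not reported here, and Hmox1, Selenow and the row NEWGENE_620381 were added. Both groups use the replicate numbers 1 to 3, and deviations of same-numbered rats correlated at 0.106, 0.0153 and 0.0979. Those of differently numbered rats correlated at -0.126 to 0.0318. The numbers were to be taken as pairs only if every same-numbered value was above 0.1, so they were not. Alternatives were other pseudocounts, filters, scalings and variance models, a replicate block, protein-coding rows alone, summed symbols, and each library left out. Promoters came from RefSeq (GRCr8).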

Additional observations from a re-analysis of the deposited data

How the results depend on the processing

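Cat, Prdx3, Txn1, Gsta1 and Gstm1 had an unadjusted p below 0.05 in all 17 alternatives, Sod2 and Sod3 in 13 and Prdx1 in 9. The members with an adjusted p below 0.05 numbered 0 except among protein-coding rows alone, where they were 3 (Gsta1 at 0.0265, Prdx3 at 0.0383 and Cat at 0.0407), because fewer rows are tested and the variance trend is fitted again. With a replicate block, which the correlations of same-numbered rats did not call for, 6 of the 8 lower members kept an unadjusted p below 0.05, with Sod3 at 0.0613 and Prdx1 at 0.0719, and 0 had an adjusted one. A higher member (1, Txndc2) appeared with a pseudocount of 1, no filter, median-ratio scaling or protein-coding rows. Among lower members, Gpx1 was gained among protein-coding rows (p 0.0452), and Mgst1 there (0.0327) and on a TPM scale (0.0499). Outside the members, Nfe2l1, Park7 and Ccs lost an unadjusted p below 0.05 without a variance trend (0.0569, 0.107 and 0.0618), Park7 with median-ratio scaling (0.0599) and Gpx6 with the replicate block (0.0632). Further, 1 member (Glrx) passed a log2 fold change of 1 with no filter, which also took the median of the glutathione peroxidases from -0.38 to 0.014. Leaving out each rat gave 5 to 10 lower members, 0 to 1 higher ones, 0 to 2 past a log2 fold change of 1 and 0 with an adjusted p below 0.05, and a median of -0.079 to 0.13 for Nfe2l2, Keap1 and Nqo1, and of -0.17 to -0.047 for all tested members. Over the whole table, genes past a log2 fold change of 1 with an unadjusted p below 0.05 went from 253 to 91 with a pseudocount of 1, to 621 with no filter and to 85 among protein-coding rows (246 to 335 with a rat left out). The genes with an adjusted p below 0.05 went from 7 to 3 with no filter, 12 without a variance trend, 4 with the replicate block, 36 among protein-coding rows and 15 with summed symbols (0 to 11 with a rat left out). At an unadjusted p the higher genes went from 502 to 279 among protein-coding rows (319 to 536 with a rat left out) and the lower ones from 1015 to between 661 and 1070 with a rat left out. Median-ratio scaling turned the sign of Prdx4 (0.0036) and Gclm (0.0094). With a rat left out the log2 fold change changed sign in members near 0, running from -0.046 to 0.095 for Sod1, -0.018 to 0.13 for Gpx4, -0.12 to 0.061 for Prdx4, -0.072 to 0.0402 for Gclm, -0.011 to 0.028 for Txnrd3, -0.059 to 0.12 for Prdx5, -0.0034 to 0.16 for Txn2, -0.0098 to 0.057 for Txnrd1, -0.058 to 0.11 for Gsr, -0.47 to 0.022 for Gsta3 and -0.079 to 0.18 for Nqo1. Summing the mu-class rows, chosen after seeing the data, put Gstm1 and its near relatives at -0.38 in place of -0.745, and all mu-class rows at -0.011. Where no value is given above the cause was not tested. Members under 0.5 FPKM were not tested.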

Other observations

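Enzymes that make superoxide or hydrogen peroxide were read from a list of 23, of which 12 were above 0.5 FPKM. At an unadjusted p below 0.05 in limma, 4 were lower in the diabetic rats (4.99% over all genes) and 0 were higher (2.47%), and the median log2 fold change of the 12 was -0.14. Cybb, the catalytic subunit of the phagocyte NADPH oxidase, was at 0.722, 0.537 and 0.58 FPKM in the DM rats against 1.29, 1.28 and 1.09 in the Nor rats, with a log2 fold change of -0.90 and an adjusted p of 0.436. Maob, a monoamine oxidase of the outer mitochondrial membrane, was at 0.982, 0.5 and 1.73 FPKM against 2.88, 2.21 and 2.17, with a log2 fold change of -1.24 and an adjusted p of 0.548. Without Nor1 the unadjusted p of Maob was 0.0504. Xdh and Aox1, the related oxidases of purines and aldehydes, had log2 fold changes of -0.49 and -0.46. The groups were apart in these 4 genes.

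A row named NEWGENE_620381, described in the table as a glutathione transferase of mu class 3, carries none of the listed symbols. It was at 1329, 1254 and 1119 FPKM in the DM rats against 1177, 1370 and 1038 in the Nor rats, which puts it at rank 20 of all rows and above every member. Its groups overlapped, with a log2 fold change of 0.05, SE 0.11, and an adjusted p of 0.958. Selenow, a small selenoprotein, was listed at 17.6 FPKM in Nor1 and at 0 in the other 5 rats.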
